A study of Homo sapiens with 21 samples.

Results

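The mRNAs described here were those of genes named ZNF plus a number that carried at least 1 AGO2 cluster in both libraries made without a urea gel, A and B. A cluster is a short stretch of crosslinked reads called in 1 library. There were 212 such genes, of 5966 named genes with a cluster in both libraries and of 423 ZNF names found in any library used. The genes were chosen by those reads, so their levels in A and B, and their order by level, are a description. Library A held 316 ZNF names and library B 230, with 104 found in A alone and 18 in B alone. Just inside the rule stood ZNF30, with 5 reads in each library, and ZNF391 and ZNF654, with 5 or 6. Just outside it stood ZNF625 with 83 reads in A, ZNF14 with 55 and ZNF143 with 54, all without a cluster in B. Of the 212 symbols, 211 matched RefSeq (GRCh38.p14), and 112 of the 212 (52.8%) lay on chromosome 19, against 6.56% of all named genes of library A.

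The cells were Flp-In T-REx 293, an established human kidney-derived line, with a stably integrated transgene for 1 RNA-binding protein carrying a FLAG-HA tag. In the 13 libraries used, new RNA was labelled with 100 µM 4-thiouridine for 8 to 12 hours before crosslinking, and a crosslinked 4-thiouridine was read as C in place of T (PAR-CLIP). The 4 AGO2 libraries of the older protocol were digested with RNase T1 at 1 U/µl, 2 without the urea gel step and 2 with it. The fluorescent libraries (fPAR-CLIP) used RNase I: AGO2 at 0.15 and 1.5 U/µl, FUBP3 and KHSRP at 0.15, 0.5 and 1.5 U/µl and CPSF1 at 0.5 U/µl, with 1 library each. The labels do not say whether A and B came from separate cultures, so p-values measure only the spread between libraries, which may be technical. Every library came from the same tagged-protein design, and no library without the tagged protein was used here. Reads in clusters ranged from 77572 (AGO2 with the gel, B) to 2172248 (KHSRP, 0.15 U/µl), and the smallest cluster held 5 reads in every library. Among genes that mark other cell types, MIR122, MIR124, MIR223 and the muscle microRNA genes had no cluster in the 6 AGO2 libraries. MIR142 held 0 to 0.155% of reads. Of the genes listed as expressed in 293 cells, IRS4 was found in 5 of the 6, MIR17HG and MIR10A in 4 and MIR20A in 2. NEFM and MIR92A1, of the same list, were found in 0 of the 6.

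C2H2 zinc finger proteins bind DNA through tandem copies of a short finger unit, and their coding sequences repeat nearly the same words from finger to finger and from gene to gene. Many also carry a KRAB domain, which recruits the corepressor TRIM28, and a large cluster of these genes lies on chromosome 19. AGO2 carries a microRNA and pairs its seed, bases 2 to 8 from the 5′ end, with the mRNA, most often in the 3′ UTR. Matches to certain seeds inside repeated finger-coding sequence have been described before. FUBP3 and KHSRP are related KH-domain proteins that bind U-rich and AU-rich RNA.

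The microRNAs whose seed matches were most frequent in clusters of the zinc finger mRNAs are shown first. The seed is in capitals, and the sequences are from RefSeq (GRCh38.p14).
hsa-miR-181a-5p: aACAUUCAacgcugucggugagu
hsa-miR-19b-3p: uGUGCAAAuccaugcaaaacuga
hsa-miR-130b-3p: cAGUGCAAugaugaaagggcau
hsa-miR-17-5p: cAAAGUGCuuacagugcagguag
hsa-miR-92a-3p: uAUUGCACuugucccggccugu
hsa-miR-23a-3p: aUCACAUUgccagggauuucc
hsa-let-7a-5p: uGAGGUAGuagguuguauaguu

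Coding clusters with the miR-181 match TGAATGT (capitals) are shown next, because they make up the largest family in coding sequence. All but that of ZNF850 were chosen after their values were seen, as the most read of their kind.
ZNF850: gacagaccttaTGAATGTaaagaatgtggg
ZNF180: aaacctttTGAATGTaatcagtgtgggaaa
ZNF180, another site: aaaaacccttTGAATGTaatcag
ZNF260: actggagaaaaaccattTGAATGTaatcag
ZNF268: attcaggtgaaaaaccataTGAATGTaatg
ZNF529: tcaaaaaccttaTGAATGTaag

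The coding sites with the most reads present in both libraries without the gel follow, with the match to an expressed family in capitals where there was one (miR-19 in ZNF711 and let-7 in ZNF567).
ZNF711: gtgtacccttgccataTTTGCACaaaaaag
ZNF227: aaaccctataaatgcgaggaatg
ZNF567: accctgtgaattcaaaaaatCTACCTCctg
ZNF292: agagaggggatttatatctgctcggtttag
ZNF217: ttcaaattattacctcaatattcatctcag

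The 3′ UTR sites are shown for contrast, with matches to miR-196 (ZNF850), miR-19 (ZNF772 and ZNF711), miR-17 (ZNF12), miR-130 (ZNF134) and miR-16 (ZNF622) in capitals. The site of ZNF786 held none of the matches searched.
ZNF786: aaaaaggaggcatctgcaaacgaaaacaat
ZNF850: acaaccatttACTACCTacg
ZNF772: taacaagtTTTGCACcaatg
ZNF711: acctttctgttTTTGCACcagataagaatc
ZNF12: tcactcaGCACTTTttctccatattcttca
ZNF134: gaaccttctagggatatgTTGCACTttctg
ZNF622: accctttTGCTGCTacttcattcgttctga

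Of the sequences shown, only the ZNF711 stretches were placed in hg38, by an identical stretch within a cluster of the same gene in an hg38 library. The coding site lay at chrX:85270686-85270715 and the 3′ UTR site at chrX:85273137-85273166, both on the plus strand. The authors' files of the 4 AGO2 libraries with and without the gel used other coordinates: at positions shared with FUBP3 at 0.5 U/µl their bases were the same at 31.4% to 35.0%, against 100% for the hg38 libraries. Gene names held across builds. Where a cluster of a zinc finger mRNA without the gel shared 18 nt with a FUBP3 cluster, both carried the same gene name for 105 of 113 clusters (A) and 85 of 87 (B).

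The zinc finger mRNAs held 1.91% of all cluster reads in library A and 1.84% in B. With the gel they held 1.43% (A) and 0.978% (B), and in the fluorescent AGO2 libraries 0.174% (0.15 U/µl) and 0.107% (1.5 U/µl). Reads of the MIR17, MIR20, MIR93 and MIR106 genes took 12.7% and 18.4% of the fluorescent libraries, against 1.93% to 3.25% of the radiolabelled ones, and their part in the lower share was not tested. Of the 212 genes, 109 and 46 had a cluster in gel libraries A and B, and 34 and 21 in the fluorescent libraries. The 6 members ZNF146, ZNF217, ZNF703, ZNF711, ZNF721 and ZNF850, had a cluster in every AGO2 library. Without the gel a median gene held 40.4 ppm (reads per 1000000 cluster reads) in A, over a range of 5.38 to 1383, and 35.4 in B, over 8.22 to 1379. These shares were not divided by transcript length, so their order is one of reads.

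ZNF711, an X-linked transcription factor related to ZFX, held the most reads. Its level was 1383 ppm without the gel in A and 1379 in B, 1473 and 1289 with the gel, and 324 and 217 in the fluorescent libraries. The radiolabelled values lay close together, and both fluorescent values lay below them. ZNF703, a transcriptional cofactor gene on chromosome 8, stood next with 952 and 1105 without the gel, 944 and 928 in the gel libraries, and 331 and 295 in the fluorescent libraries. ZNF850, a KRAB zinc finger gene on chromosome 19, had 737 and 702 without the gel, 502 and 529 in the gel libraries, and 40.6 and 20.8 in the fluorescent libraries. ZNF146, a protein made almost wholly of fingers, had 684 and 640, then 639 and 425, then 30.4 and 29.8. ZNF711 and ZNF703 thus kept a larger part of their level in the fluorescent libraries than ZNF850 and ZNF146. ZNF567, ZNF227, ZNF678, ZNF786, ZNF652, ZNF451, ZNF772 and ZNF12 completed the 12 highest, between 262 and 650 ppm in A. The 12 together held 37.4% of the reads of all zinc finger members in A and 39.5% in B.

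**Figure D1:**
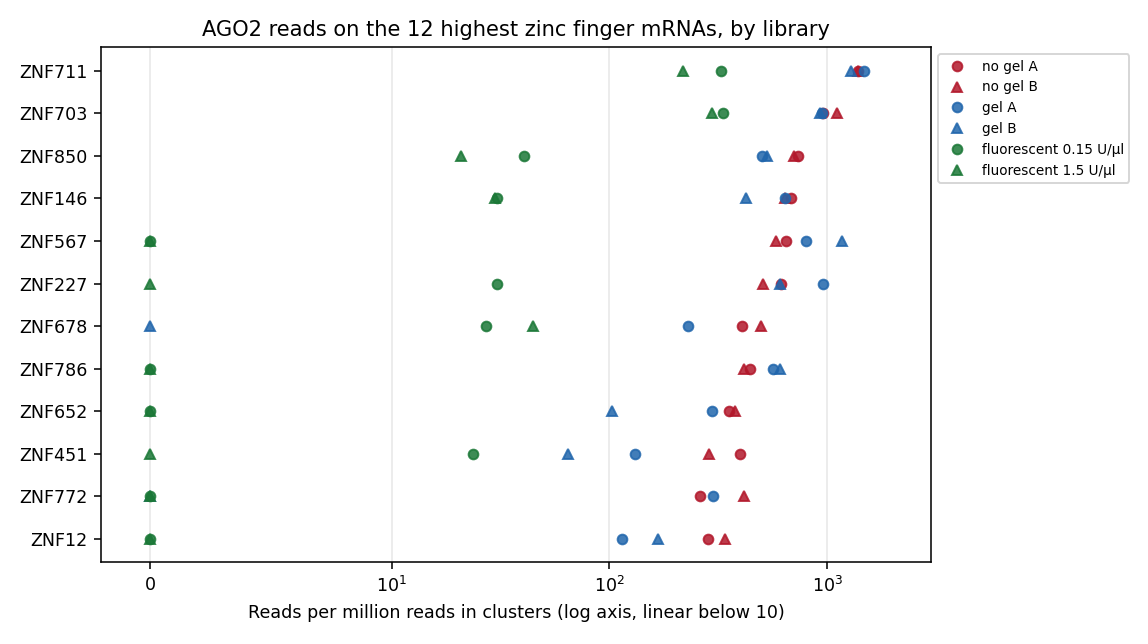
AGO2 reads in ppm of cluster reads (horizontal log axis, linear below 10) for the 12 zinc finger mRNAs with the largest mean share without the gel, 1 point per library. ZNF711 and ZNF703 stand between 928 and 1473 in the 4 radiolabelled libraries and between 217 and 331 in the fluorescent ones, where several other genes are at 0.

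The clusters of these mRNAs lay in coding sequence more often than those of other genes in the radiolabelled AGO2 libraries. Without the gel, 432 of 954 exonic clusters (coding, 5′ UTR or 3′ UTR) in A were coding, 45.3% with a 95% Wilson interval of 42.2 to 48.4%, against 30.6% for all other named genes. In B, 288 of 658 were coding, 43.8% (40.0 to 47.6%), against 29.4%. The mean was 44.5% ± 1.07 (SD, n = 2), against 30.0% ± 0.896 for other genes. With the gel the coding share was 41.7% (A) and 43.9% (B), against 24.2% and 19.5%. In each of the 4 libraries the members' share lay above that of the other genes, with intervals that did not overlap. The intervals cover counting error only, since clusters of 1 gene and PCR reads are not independent.

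In the fluorescent AGO2 libraries the numbers were small. At 0.15 U/µl 18 of 45 exonic clusters were coding, 40.0% (27.0 to 54.5%) against 26.1% for other genes, and at 1.5 U/µl 7 of 30, 23.3% (11.8 to 40.9%) against 25.7%. A higher coding share was therefore not detectable at the larger dose. ZNF names outside the rule, chosen by their absence from 1 library, had 48.9% coding clusters in A and 68.8% in B, the latter over 16 clusters. Genes named ZFP, ZBTB, ZKSCAN or ZSCAN had 23.3% and 18.6%, below the ZNF members in both libraries. Between the 2 gel conditions the members' coding share differed by 1.72 percentage points (two-sided exact permutation over 2 against 2 libraries, p = 0.67, where the smallest possible p is 0.33). Counted as a share of reads the order turned, with 45.4% and 47.3% in the gel libraries against 41.2% and 40.7%.

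**Figure D2:**
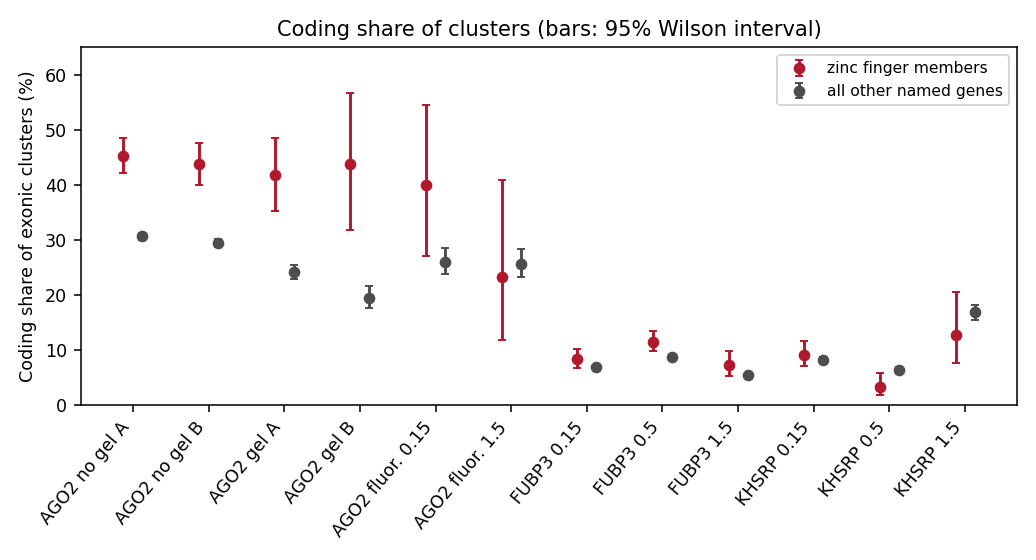
Coding share of exonic clusters (vertical axis, percent) in each library for the zinc finger members (red) and all other named genes (grey), with 95% Wilson intervals as bars. The members stand between 41.7% and 45.3% in the 4 radiolabelled AGO2 libraries, above other genes, and at or below 12.7% in the FUBP3 and KHSRP libraries.

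Among the genes, 141 of 212 had both coding and 3′ UTR clusters in A or B, 33 had coding clusters with none in the 3′ UTR, 27 the reverse and 11 neither. The order of coding against 3′ UTR was partly stable between the libraries: 52 genes had more coding clusters in both, 59 had more 3′ UTR clusters in both, 35 switched (17 and 18 in the 2 directions) and 66 were tied in A or B. ZNF180, a KRAB gene, had 9 coding clusters and 1 in the 3′ UTR in A, 11 and 0 in B, 4 and 0 in gel A and 2 and 0 in gel B. ZNF268, another KRAB gene, had 10 coding and 6 3′ UTR clusters in A, 10 and 3 in B, 4 and 0 in gel A and 2 and 0 in gel B. Both genes were picked by their coding clusters in A and B, so only the gel counts lie outside that choice. The gel counts, though few, were on the coding side in both genes. ZNF711, ZNF644 (a partner of the G9a and GLP histone methyltransferases), ZNF551 and ZNF207 completed the 6 genes with the most coding clusters.

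At the other end, ZNF678 had 25 3′ UTR and 3 coding clusters in A, 24 and 3 in B, 7 and 0 in gel A and none in gel B. ZNF451, a SUMO ligase with zinc fingers, had 20 3′ UTR and 3 coding clusters in A, 13 and 2 in B, 4 and 0 in gel A and 1 and 0 in gel B. ZNF703, ZNF146, ZNF217 and ZNF850 followed in the number of 3′ UTR clusters in A and B, which is not a balance against coding clusters. ZNF850 had 9 3′ UTR and 7 coding clusters in A, 8 and 6 in B, 3 and 4 in gel A and 2 and 2 in gel B. The same positions were found again at similar rates on both sides. Of the coding clusters in A, 108 of 432 (95% Wilson interval 21.1 to 29.3%) overlapped a cluster of B, and of the 3′ UTR clusters 149 of 502 (25.9 to 33.8%). For other genes the shares were 16.2% and 26.2%. The members were chosen by a cluster in both libraries and the other genes were not. The choice favours the members' shares, so the gap to other genes is not read. Weighted by reads, 56.4% of coding and 59.3% of 3′ UTR reads of the members in A lay in clusters found in B.

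Individual sites showed how the reads were divided. The ZNF711 coding site with the miR-19 match had 657 reads in A, 397 in B, 185 in gel A and 62 in gel B, and the adjoining coding site downstream, without a match, had 98, 37, 13 and 10. Its 3′ UTR site with the same match had 145, 142, 35 and 17. The coding site thus led the 3′ UTR site in all 4 libraries. The ZNF227 coding site, which held no match searched, had 467, 269, 163 and 47 reads, and the T-to-C share given by the authors for the cluster was 100%. The ZNF567 coding site with the let-7 match had 349, 224, 110 and 72. Among 3′ UTR sites ZNF786 led with 360, 245, 103 and 47 reads, ahead of ZNF850 with 350, 173, 37 and 19.

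Seed matches were searched on the mRNA strand only, as the 7 letters that pair with bases 2 to 8 of a microRNA. Families chosen as expressed in these cells (18 with a sequence in the table) were matched in fewer clusters of the members than of other genes in the libraries without the gel. In coding clusters the share with a match was 5.09% (A) and 6.60% (B), against 10.2% and 13.9% in other genes. In 3′ UTR clusters it was 10.4% and 9.42%, against 12.5% and 17.1%. Over all member clusters 101 of 1154 (8.75%) held a match in A and 81 of 782 (10.4%) in B, against 12.2% and 16.2%. Weighted by reads the members' share was 21.5% and 20.5%, against 20.2% and 21.9%, which lay close to each other over all clusters. Over all clusters the other genes include the microRNA genes themselves, whose reads enter the total. The MIR17, MIR20, MIR93 and MIR106 genes alone held 1.93% of reads in A and 3.25% in gel B. Shares of reads over all clusters are therefore of unlike sets. Within a region a gap in reads was seen: 20.9% and 22.3% of coding cluster reads against 24.9% and 27.4%, and 22.6% and 19.3% of 3′ UTR cluster reads against 29.7% and 36.2%. In the gel libraries the members' share was likewise lower by clusters (12.4% and 19.4% against 20.3% and 30.2%). By reads, over the same unlike sets, the members' share was higher (23.0% and 32.8% against 17.7% and 19.3%). In the fluorescent library at 0.15 U/µl it was not lower: 15 of 47 clusters (31.9%, 20.4 to 46.2%) against 24.6%. At 1.5 U/µl it was 6 of 33 (18.2%, 8.61 to 34.4%) against 18.7%, with 4 of 7 coding clusters.

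The 5 families of other tissues were matched in at most 0.831% of coding or 3′ UTR clusters of the members in A and B. This share rests on 5 words and that of the expressed families on 18, so the size of the gap between them is not read.

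The families differed by region. Matches to miR-130 (TTGCACT) stood in 11 3′ UTR clusters and 1 coding cluster of the members in each of A and B. Matches to miR-19 (TTTGCAC) stood in 10 3′ UTR and 6 coding clusters in each, and matches to miR-17 (GCACTTT) in 8 and 2 in A and 3 and 0 in B. These words overlap: 1 site such as that of ZNF134 can hold both the miR-130 and the miR-17 match. Both miR-130 and miR-17 matches were thus more frequent in the 3′ UTR than in coding sequence. Over all annotation classes of A and B, the 3′ UTR held 22 of 33 clusters with the miR-130 match and 11 of 23 with the miR-17 match. Matches to let-7 (CTACCTC) were split, with 4 coding clusters in each library and 5 and 3 in the 3′ UTR.

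The reverse order held for the miR-181 match. It stood in 20 of 432 coding clusters in A (4.63%) and 14 of 288 in B (4.86%), against 0.254% and 0.344% of the coding clusters of other genes. In the members' 3′ UTR it stood in 2 of 502 and 4 of 361 clusters. With the gel it stood in 10 of 86 coding clusters in A and 2 of 25 in B, and in no 3′ UTR cluster. Per kilobase of the members' coding clusters it stood at 1.90 (A), 1.97 (B), 4.78 (gel A) and 3.24 (gel B). In FUBP3 coding clusters of the same mRNAs it stood at 3.18, 4.88 and 0 at 0.15, 0.5 and 1.5 U/µl. With KHSRP at 0.15 U/µl it stood at 3.96, so the match was not particular to AGO2. Reads of the MIR181 genes were present in all 6 AGO2 libraries, from 0.210% of cluster reads (no gel, A) to 0.847% (fluorescent, 0.15 U/µl). Reads of a microRNA's own gene did not follow the matches in every family: the MIR19 genes had no cluster in A or B and 0.0218% to 0.296% of reads in the other AGO2 libraries, and the MIR18 genes had none in all 6. MIR142, of a background family, had 767 reads in A and 729 in B. The miR-181 match lay in 23 distinct coding sites of 20 genes, of which 13 were found in both A and B. Of all 610 coding sites of the members, 107 (17.5%) were found in both.

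The reads at these sites were modest. The ZNF850 site had 49 reads in A, 56 in B, 29 in gel A and 6 in gel B. The ZNF180 sites had 67, 29, 5 and 0, and 30, 33, 13 and 8. ZNF260 had 25, 32, 10 and 0, and ZNF268 had 23, 23, 10 and 6. ZNF529 had 15, 15, 5 and 6, and ZNF121 had 15, 14, 0 and 0. Each of these sites but that of ZNF121 was present in gel A. Those of ZNF850, ZNF268 and ZNF529 and the second of ZNF180 were present in gel B. The sites were picked as the most read in A and B, so their presence there is a description. The miR-23 match (AATGTGA), whose seed differs, stood in 5 and 4 coding clusters and 4 and 4 3′ UTR clusters of A and B.

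With miR-23, miR-199 and miR-188 added to miR-181 as families with repeated matches in finger-coding sequence, matches per kilobase of coding cluster were 2.57 (A), 2.53 (B), 6.70 (gel A) and 4.86 (gel B) in the members. In other genes they were 0.304, 0.346, 0.151 and 0.660. ZNF names outside the rule had 1.88 (A) and 4.07 (B), on 3 of 70 and 1 of 11 coding clusters, so these words were not particular to the members. The same words stood in FUBP3 and KHSRP coding clusters of the same mRNAs. Their density there was 4.77, 5.85 and 0.893 per kilobase for FUBP3 at 0.15, 0.5 and 1.5 U/µl, and 4.53, 3.32 and 0 for KHSRP. For the ZNF names outside the rule it was 9.73, 4.92 and 3.36 with FUBP3, on 17, 26 and 10 coding clusters, and 12.2, 0 and 0 with KHSRP, on 9, 5 and 4. The 1.5 U/µl libraries held only 37 and 13 coding clusters of the members and KHSRP at 0.5 U/µl only 10. At 0.15 and 0.5 U/µl the members' values for FUBP3 and KHSRP lay above both AGO2 libraries without the gel and below gel A. Expressed-family matches did not show this: in the members' coding clusters they stood at 2.38 to 8.10 per kilobase in the radiolabelled AGO2 libraries and at 0 to 1.19 in the FUBP3 and KHSRP libraries. Clusters were longer in the fluorescent libraries (median 28 to 31 nt against 22 to 23 nt), which is why densities are given.

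**Figure D3:**
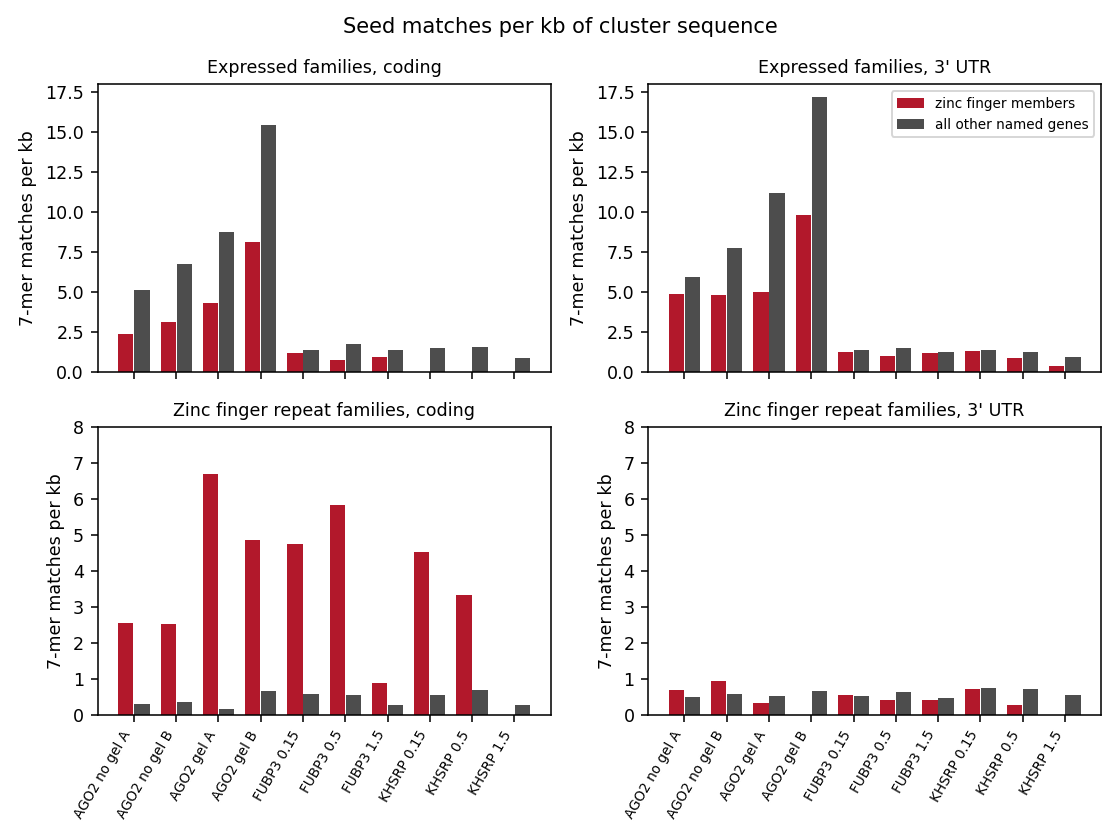
Seed matches per kilobase of cluster sequence (vertical axes) in coding clusters (left) and 3′ UTR clusters (right) for 18 expressed families (top) and 4 zinc finger repeat families (bottom), in the zinc finger members (red) and all other named genes (grey). Repeat-family matches are denser in the members' coding clusters than in those of all other genes (which include the ZNF names outside the rule), for AGO2 and also for FUBP3 and KHSRP apart from the 1.5 U/µl libraries, while expressed-family matches are densest for AGO2.

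The genes that carried the miR-181 word in coding clusters overlapped in part. There were 21 such genes for AGO2 without the gel, counting every cluster, 20 for FUBP3 and 8 for KHSRP. Of these, 7 were shared between AGO2 and FUBP3 (ZNF248, ZNF383, ZNF529, ZNF567, ZNF571, ZNF607 and ZNF850), 33.3% of the AGO2 genes and 35.0% of the FUBP3 genes. In none of the 7 did the clusters share 18 nt. Since clusters can cover the same word with a shorter overlap, whether the word was the same copy was not tested. KHSRP shared 3 genes with AGO2, and 1 of them shared 18 nt.

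The words most frequent in the members' coding clusters were picked in library A as the 6 leading words of 8 letters: TGTGGGAA, GTGGGAAA, GAATGTAA, ATGTGGGA, TGAATGTA and AAACCTTA. At least 1 of them stood in 45 of 432 coding clusters in A, the library that chose them, and in 38 of 288 (13.2%, 9.77 to 17.6%) in B, which did not. B is not independent of A: both chose the members, and 108 of 432 coding clusters of A overlapped a cluster of B. In gel A and gel B the share was 14 of 86 and 4 of 25, and in other genes' coding clusters 0.508% (A) and 0.436% (B). In the members' own 3′ UTR clusters it was 1.99% and 1.94%. FUBP3 coding clusters of the same mRNAs held 1 of them in 11.0%, 17.6% and 8.11% at the 3 doses, and KHSRP in 15.3%, 10.0% and 0%. Of these words, TGAATGTA and GAATGTAA hold the miR-181 match in whole or in part, and the others do not.

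Coding clusters were also the ones that shared sequence between genes. In A, 17 of 432 coding clusters (3.94%) shared a stretch of 18 nt with a cluster of another gene in the same library, and in B 10 of 288 (3.47%), against 0.227% and 0.390% in other genes. For such clusters the authors' assignment of reads to 1 gene is uncertain. Without them the coding share of the members was 44.4% and 42.9%. Distances between coding clusters of 1 gene were set against multiples of 84 nt, the length of 1 finger unit with its linker. In A 88 of 350 distances (25.1%) lay within 10 nt of a multiple and in B 81 of 253 (32.0%), against 25.3% in both libraries for the members' 3′ UTR clusters and 23.8% and 25.2% for other genes' coding clusters. The share was thus higher in B and not in A. Distances within 1 gene are not independent, so no repeat spacing is read from these shares.

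Reads per gene were compared between the libraries without and with the gel with edgeR's quasi-likelihood test, a positive log2 ratio meaning more reads where the gel step was left out. Libraries A and B, which chose the members, form one side of this comparison. Every gene tested had to have a cluster in all 4 libraries, so each met the rule's condition on A and B, and the members' counts are read only beside those of all genes tested. Of the members, 38 could be tested, and none was called at an adjusted p under 0.05. Over all 1121 genes tested 3 were called (0.268%). There were 6 members with an unadjusted p under 0.05 (edgeR), and DESeq2 also called none, with 3 such members. The members' median log2 ratio was 0.31, against 0.01 over all genes, with 22 above 0 and 16 below. In 17 members both libraries without the gel lay above both with it, against 23.8% of all genes tested. In 5 the order was the reverse, against 23.4% of all genes.

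The 5 largest ratios did not pass the test. ZNF681 had 27.3 and 77.3 ppm in the gel libraries against 11.8 and 8.22, a log2 ratio of -2.16 (SE 0.865, adjusted p = 0.351, edgeR), on 5 to 11 reads per library. ZNF451 had 131 and 64.5 ppm in the gel libraries against 399 and 286, a log2 ratio of 1.69 (SE 0.476, adjusted p = 0.253, edgeR). The groups did not overlap in either gene. ZNF317 had 65.5 and 90.2 ppm in the gel libraries against 160 and 174 (adjusted p = 0.348, edgeR). ZNF12 (log2 ratio 1.19) and ZNF235 (-1.10) had adjusted p-values of 0.289 and 0.561 (edgeR). The share of member clusters with an expressed-family seed match was 12.4% and 19.4% in the gel libraries against 8.75% and 10.4% without it. The means were 15.9% ± 4.92 and 9.55% ± 1.14 (SD, n = 2 each), and the groups did not overlap, at the smallest p that 2 against 2 libraries allow (two-sided exact permutation, p = 0.33). When each library's read minimum per cluster was set to the same share of its reads, the order turned, to 17.3 points higher without the gel. For other genes the shares were 12.2% and 16.2%, and 20.3% and 30.2% in the gel libraries.

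Clusters were also found on many corepressor genes that work with KRAB zinc finger proteins. Of 26 names, among them TASOR and FAM208A for 1 gene, 22 had a cluster in A and 19 in B, with 0.220% and 0.208% of reads. Of all 17219 gene names in the libraries used, 9430 had a cluster in A. SETDB1 had 0 reads in A and 5 in B, and EHMT2 had none in either. TRIM28, which KRAB domains recruit, had 156 reads in A and 131 in B, 29 and 7 with the gel, and 6 and 7 coding clusters against 1 and 1 in the 3′ UTR. CBX5, the heterochromatin protein HP1 alpha, had 923, 596, 129 and 99 reads, with no coding cluster and 16 and 10 in the 3′ UTR. The 4 genes with a cluster in each library (CBX3, CBX5, CHD4 and TRIM28) could be tested between the gel conditions, and none was called in either direction.

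The same zinc finger mRNAs also had clusters in the FUBP3 and KHSRP libraries. The share of other genes with a cluster there is not given here, so the counts are a description. At least 1 cluster was found for 192, 199 and 180 of the 212 with FUBP3 at 0.15, 0.5 and 1.5 U/µl, and for 186, 161 and 116 with KHSRP. They held 2.17%, 2.19% and 2.08% of FUBP3 reads and 2.32%, 2.22% and 1.68% of KHSRP reads. The sites lay elsewhere than those of AGO2. Introns held 61.5% to 62.5% of the members' FUBP3 clusters and 72.1% to 77.3% of their KHSRP clusters, against 11.3% (A) and 9.85% (B) for AGO2 without the gel. Of exonic clusters 86.1% to 90.6% (FUBP3) and 83.3% to 91.4% (KHSRP) were in the 3′ UTR. The coding share was 8.29%, 11.5% and 7.21% for FUBP3, against 6.92%, 8.77% and 5.48% in other genes, and 9.13%, 3.21% and 12.7% for KHSRP, against 8.21%, 6.42% and 16.8%. In the KHSRP libraries at 0.5 and 1.5 U/µl the members' values were below those of the other genes. They rest on only 10 and 13 coding clusters, so no direction is drawn from them.

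AGO2 3′ UTR sites of the members were shared with FUBP3 more often than coding sites were. Of the members' 3′ UTR clusters in A, 13.7% (0.15 U/µl) and 15.7% (0.5 U/µl) shared 18 nt with a FUBP3 cluster, against 1.62% and 3.24% of coding clusters. For other genes the 3′ UTR shares were 14.1% and 16.1%, close to those of the members. Their coding shares were 0.948% and 1.46%, lower than the members', with intervals overlapping at 0.15 U/µl. With KHSRP (0.15 and 0.5 U/µl) the members' 3′ UTR shares in A were 11.55% and 6.77%, against 8.04% and 3.94% for other genes. In B they were 12.5% and 6.09%, against 8.96% and 4.65%. The interval of the 6.09%, 4.06 to 9.05%, included 4.65%. At 1.5 U/µl the KHSRP shares were close, 1.2% against 0.90% in A. At the coding sites the FUBP3 libraries held few clusters to compare with, 82 and 131.

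At matched doses, FUBP3 and KHSRP were set against each other by each gene's share of cluster reads, with 1 library per protein and dose and therefore no test. Of the members, 66 had at least 10 reads in each of the 6 libraries. Of these, 18 were higher with FUBP3 at all 3 doses (27.3%, against 27.1% of 3563 genes) and 12 higher with KHSRP (18.2%, against 29.6%). The median log2 ratio (FUBP3 over KHSRP) was 0.26, 0.11 and 0.09 at 0.15, 0.5 and 1.5 U/µl, against 0.09, 0.09 and -0.21 over all genes. The direction depended on the read minimum: with at least 50 reads 14 members were left, of which 0 were higher with FUBP3 and 5 with KHSRP at all doses, while of 789 genes in all 107 and 474 were. In exonic clusters 17 members were left, of which 1 was higher with FUBP3 and 6 with KHSRP, against 67 and 212 of 519 genes. The turn toward KHSRP was thus seen over all genes and was not one of the members.

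Toward FUBP3, ZNF664 had 165, 211 and 257 ppm against 20.3, 42.0 and 64.9 with KHSRP, log2 ratios of 3.02, 2.33 and 1.98. ZNF264, a KRAB gene, had 201, 277 and 368 against 66.3, 59.6 and 54.9. ZNF678, the gene with the most AGO2 clusters in its 3′ UTR, had 795, 752 and 777 against 385, 395 and 210. ZNF92, ZNF652 and ZNF516 completed the 6, with log2 ratios of at least 0.80 at every dose. The KHSRP counts behind these ratios were low at 1.5 U/µl, from 11 to 42 reads in the 6 genes.

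Toward KHSRP, ZNF207, a spindle and kinetochore protein also known as BuGZ, had 508, 523 and 400 ppm with FUBP3 against 1751, 1748 and 1409 with KHSRP, log2 ratios of -1.78, -1.74 and -1.82. ZNF638, a nuclear RNA-binding protein, had 575, 528 and 661 against 1763, 1715 and 1503. ZNF227, a gene led by its coding site with AGO2, had 165, 224 and 199 against 516, 536 and 285. ZNF302, ZNF527 and ZNF326 (a subunit of the DBIRD complex) completed the 6. ZNF207 and ZNF638 had over 280 reads in each of the 6 libraries, so their order rested on many more reads than that of the genes toward FUBP3. ZNF711 had 2427, 2350 and 1876 ppm with FUBP3 and 4271, 4143 and 1763 with KHSRP, higher with KHSRP at the 2 lower doses and close at 1.5 U/µl.

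**Figure D4:**
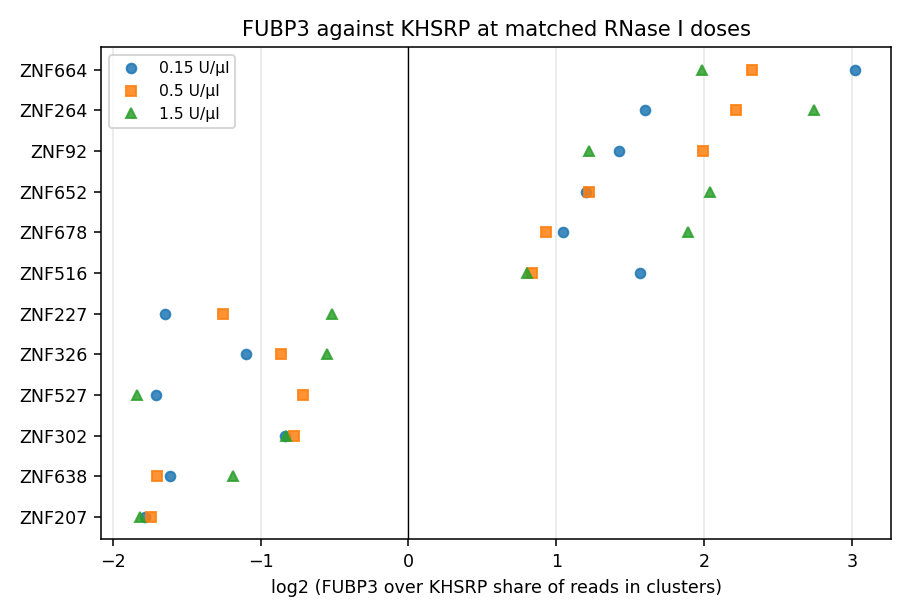
Log2 ratio of FUBP3 over KHSRP in the share of cluster reads (horizontal axis) at 3 matched RNase I doses for the 6 zinc finger mRNAs with the largest consistent ratio toward each protein, 1 library per protein and dose. ZNF664 lies farthest toward FUBP3 (1.98 to 3.02) and ZNF207 farthest toward KHSRP (-1.82 to -1.74).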

How the data were processed

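The deposited files listed clusters called by the authors in single libraries, with raw counts of reads, of distinct sequences and of T-to-C events, and the T-to-C share as a fraction of a cluster's reads, per the file headers. The submitters' processing notes name bcl2fastq 2.20.0, cutadapt 1.15 and hg38. The aligner, cluster caller and annotation are not given in the sources used here. Reads outside clusters were not used, so shares are of reads in clusters, and depth limits which genes are found.

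The members, gene lists and microRNA families were chosen with earlier results of these data known. Reads were summed per gene. For the gel comparison, genes found in all 4 libraries with at least 10 reads in all entered edgeR 4.0.16 (quasi-likelihood, TMM, Benjamini-Hochberg over all genes, R 4.3.3), with DESeq2 1.42.0 as the other tool, and the code was tested on simulated data. Shares of clusters were compared by exact permutation over libraries (scipy 1.17.1). Overlap needed 1 nt on the same strand (bedtools 2.31.1), or 18 nt of identical sequence between builds. Regions are the authors' annotation classes. Sequences of hsa-miR-320a-3p, hsa-miR-186-5p and hsa-miR-124-3p were not used here, nor were protein sequences, so coding sites were not placed within fingers.

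Genes named were the 12 with the largest mean share without the gel, those in all 6 AGO2 libraries, those called or with the 5 largest gel ratios, the 6 with most coding and the 6 with most 3′ UTR clusters, and the 6 with the largest smallest ratio toward FUBP3 and toward KHSRP. Sites shown were the most read per seed family (8 families) and the 6 most read coding and 3′ UTR sites in both libraries, outside chromosome 8. A selection of these is printed, each at most 30 nt long. Software also included Python 3.11.15, pandas 2.3.3, numpy 2.4.6 and matplotlib 3.10.9. U2AF1 libraries, RNase T1 libraries of FUBP3 and KHSRP, and AGO2 samples without a cluster file were not analysed here.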

Additional observations from a re-analysis of the deposited data

How the results depend on the processing

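No zinc finger member was called between the gel conditions under any alternative (DESeq2, median-of-ratios scaling, a minimum of 50 reads or none, distinct sequences, leaving out each library in turn: 0 to 0). No pairing by the letters A and B was seen in the reads (correlation of deviations -0.01 over 1121 genes). This cannot tell whether libraries of the same letter shared a culture. With the replicate block 0 members were called too. The gel difference in coding share (1.72 percentage points, 0.666 to 2.78 without each library) turned to -5.41 as a share of reads and to -5.37 when each library's read minimum per cluster was set to the same share of its reads. The seed-match difference (-6.32, -9.80 to -2.84 without each library) turned to 17.3 with the matched minimum, where 32 to 62 member clusters per library were left. The cause was not tested. Members minus other genes without the gel was 13.7 to 20.8 points for coding share under the alternatives. For seed matches it was -6.81 to -2.03 by clusters and -0.0792 by reads, where A (21.5% against 20.2%) and B (20.5% against 21.9%) had opposite signs. The other genes in this comparison include the microRNA genes. Members higher with FUBP3 at all doses (18) numbered 0 with at least 50 reads, 31 with at least 5, 1 in exonic clusters and 58 without dose 1.5, beside 107 of 789, 1611 of 5226, 67 of 519 and 2770 of 5867 genes in all. Those higher with KHSRP (12) numbered 5, 14, 6 and 25, beside 474, 1189, 212 and 1776. The lower counts at 50 reads and in exonic clusters follow in part from fewer members tested (14 and 17). The median at 0.15 U/µl turned to -0.50 with at least 50 reads and to -0.14 in exonic clusters. Leaving out clusters that share 18 nt with another gene was chosen after seeing the data.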
